A study of Mus musculus with 9 samples.

Results

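Gluconeogenesis is the route by which the liver makes glucose from lactate, pyruvate, alanine and other precursors. The 9 genes described here are its committed enzymes, the carriers that feed or finish it, and an aminotransferase of its aspartate route. Toward its start are the pyruvate carrier subunits Mpc1 and Mpc2, pyruvate carboxylase (Pcx), the aspartate aminotransferase Got1 and the phosphoenolpyruvate carboxykinases Pck1 and Pck2. Toward its end are fructose-1,6-bisphosphatase (Fbp1), the catalytic unit of glucose-6-phosphatase (G6pc) and the glucose-6-phosphate transporter Slc37a4. All 9 genes were chosen by symbol and were listed among 55253 gene symbols. All 9 passed the filter on low values, which left 14759 genes for testing. In these livers the pathway did not move in 1 direction: Pcx and Fbp1 rose, Pck1 fell, G6pc had lower values without passing the threshold, and Pck2, Mpc2, Slc37a4 and Got1 had overlapping values in both groups.

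The libraries came from liver tissue of 9 male C57Bl/6J mice. In the WD+alcohol group, 5 mice had a Western diet (WD) and 10% alcohol in sweetened drinking water for 23 weeks, starting at the age of 10 weeks. The 4 control mice, also labelled as 23 weeks, had chow and plain tap water. No starting age is given for them in the labels. Diet, sugar and alcohol were given together, so their effects cannot be told apart, and neither feeding state nor hour of collection is given in the labels. Libraries read the 3′ ends of transcripts, with 3635860 to 6643645 reads in WD+alcohol livers and 5050763 to 5910285 in control livers. Since each transcript is read at its 3′ end, a level in CPM (read counts scaled to a common library total, adjusted by the TMM method) is not divided by transcript length, and levels of different genes are compared on this scale only.

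In textbook terms the pathway starts in the mitochondrion. Pyruvate enters through the Mpc1-Mpc2 carrier and Pcx makes oxaloacetate, which leaves as malate or as aspartate; aspartate needs Got1 in the cytosol. Pck1 in the cytosol, or Pck2 in the mitochondrion, makes phosphoenolpyruvate, and after steps shared with glycolysis, Fbp1 and the G6pc-Slc37a4 system in the endoplasmic reticulum release glucose. Pck1 and G6pc are known as genes that glucagon, through cAMP, raises and insulin lowers, while Pcx is also activated by acetyl-CoA at the level of the enzyme.

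The 250 bases before the annotated start are shown for Pck1, G6pc, Pcx and Fbp1. These are the 4 genes other than the sparsely read Mpc1 whose values did not overlap between groups. Only some of the textbook control of this pathway is placed there, and bases farther away were not searched. Of 2 listed Pcx starts, only the upstream window is printed. The windows are RefSeq windows of the mouse build GRCm38.p6, whereas the reads were aligned to GRCm39. Pck1 lies at chr2:173152823-173153072 (plus strand), G6pc at chr11:101367466-101367715 (plus strand), the upstream of 2 listed Pcx starts at chr19:4510222-4510471 (plus strand), and Fbp1 at chr13:62888283-62888532 (minus strand). Each is printed 5′ to 3′ on the strand of the gene, and capitals mark matches to 4 motifs searched on both strands. The cAMP response type element was searched as TTACGTNA. The insulin response type element was searched as TNTTTTG, the E-box as CACGTG and the TATA box as TATAAA.
Pck1: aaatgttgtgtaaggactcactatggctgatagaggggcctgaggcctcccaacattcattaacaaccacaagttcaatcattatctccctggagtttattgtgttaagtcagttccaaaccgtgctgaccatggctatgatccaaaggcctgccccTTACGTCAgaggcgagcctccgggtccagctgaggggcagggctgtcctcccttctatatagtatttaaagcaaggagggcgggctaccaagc
G6pc: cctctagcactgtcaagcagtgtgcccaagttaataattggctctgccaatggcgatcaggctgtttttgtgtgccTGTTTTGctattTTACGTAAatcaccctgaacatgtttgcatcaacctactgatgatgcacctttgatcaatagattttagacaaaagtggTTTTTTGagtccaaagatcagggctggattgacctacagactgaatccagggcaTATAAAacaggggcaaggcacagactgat
Pcx: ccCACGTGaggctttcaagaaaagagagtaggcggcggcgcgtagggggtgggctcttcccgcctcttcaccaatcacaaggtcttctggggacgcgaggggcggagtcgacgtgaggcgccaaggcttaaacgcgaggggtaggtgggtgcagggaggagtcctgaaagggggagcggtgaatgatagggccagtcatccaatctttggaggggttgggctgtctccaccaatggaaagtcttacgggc
Fbp1: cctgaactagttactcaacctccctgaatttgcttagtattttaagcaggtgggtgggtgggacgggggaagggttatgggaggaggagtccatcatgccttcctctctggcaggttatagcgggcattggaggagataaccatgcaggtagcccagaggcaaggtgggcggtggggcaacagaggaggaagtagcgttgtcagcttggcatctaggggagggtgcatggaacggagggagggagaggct

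The Pck1 window held TTACGTCA from 93 to 86 bases before the start, and the G6pc window held TTACGTAA from 162 to 155 bases before it. No other window of the 9 genes matched TTACGTNA, which 0.788% of 32851 mouse windows did. The G6pc window also held 2 matches to TNTTTTG, a motif found in 16.9% of windows, and 1 to TATAAA, found in 12.4%. The upstream Pcx window matched CACGTG (6.02% of windows) and the Fbp1 window matched none of the 4 motifs. All 9 genes had at least 1 window in the table, and the remaining matches were TNTTTTG for Pck2 and TATAAA at 1 of the Slc37a4 starts. The motifs were chosen with the results and the sequences known, none of them overlapped another in these windows, and a match describes letters only. Reads of 3′ ends cannot tell the 2 listed Pcx starts apart.

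The whole comparison called 338 of 14759 genes (2.29%) at an adjusted p under 0.05 by limma-trend, 238 higher (1.61%) and 100 lower (0.678%) with WD+alcohol. Scaling on 30 hepatocyte markers instead gave 514 calls, 428 higher and 86 lower, with the whole distribution centred on a log2 fold change of 0.17. Of the 9 gluconeogenesis genes, 3 were called, 2 higher (Pcx and Fbp1) and 1 lower (Pck1). On recovered reads, edgeR called the same 3 genes, where it called 2.13% of all genes (1.5% higher, 0.63% lower), and DESeq2 called these 3 and G6pc, where it called 3.71% (2.52% higher, 1.19% lower). Separation of the groups without any overlap was seen for 5 of the 9 genes (Mpc1, Pcx and Fbp1 higher, Pck1 and G6pc lower), against 5.34% of the genes tested (3.34% higher, 2% lower). The median log2 fold change of the 9 genes was -0.19, beside -0.00077 for all genes tested. In bulk liver, fewer cells of a type and less RNA per cell cannot be told apart.

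**Figure D1:**
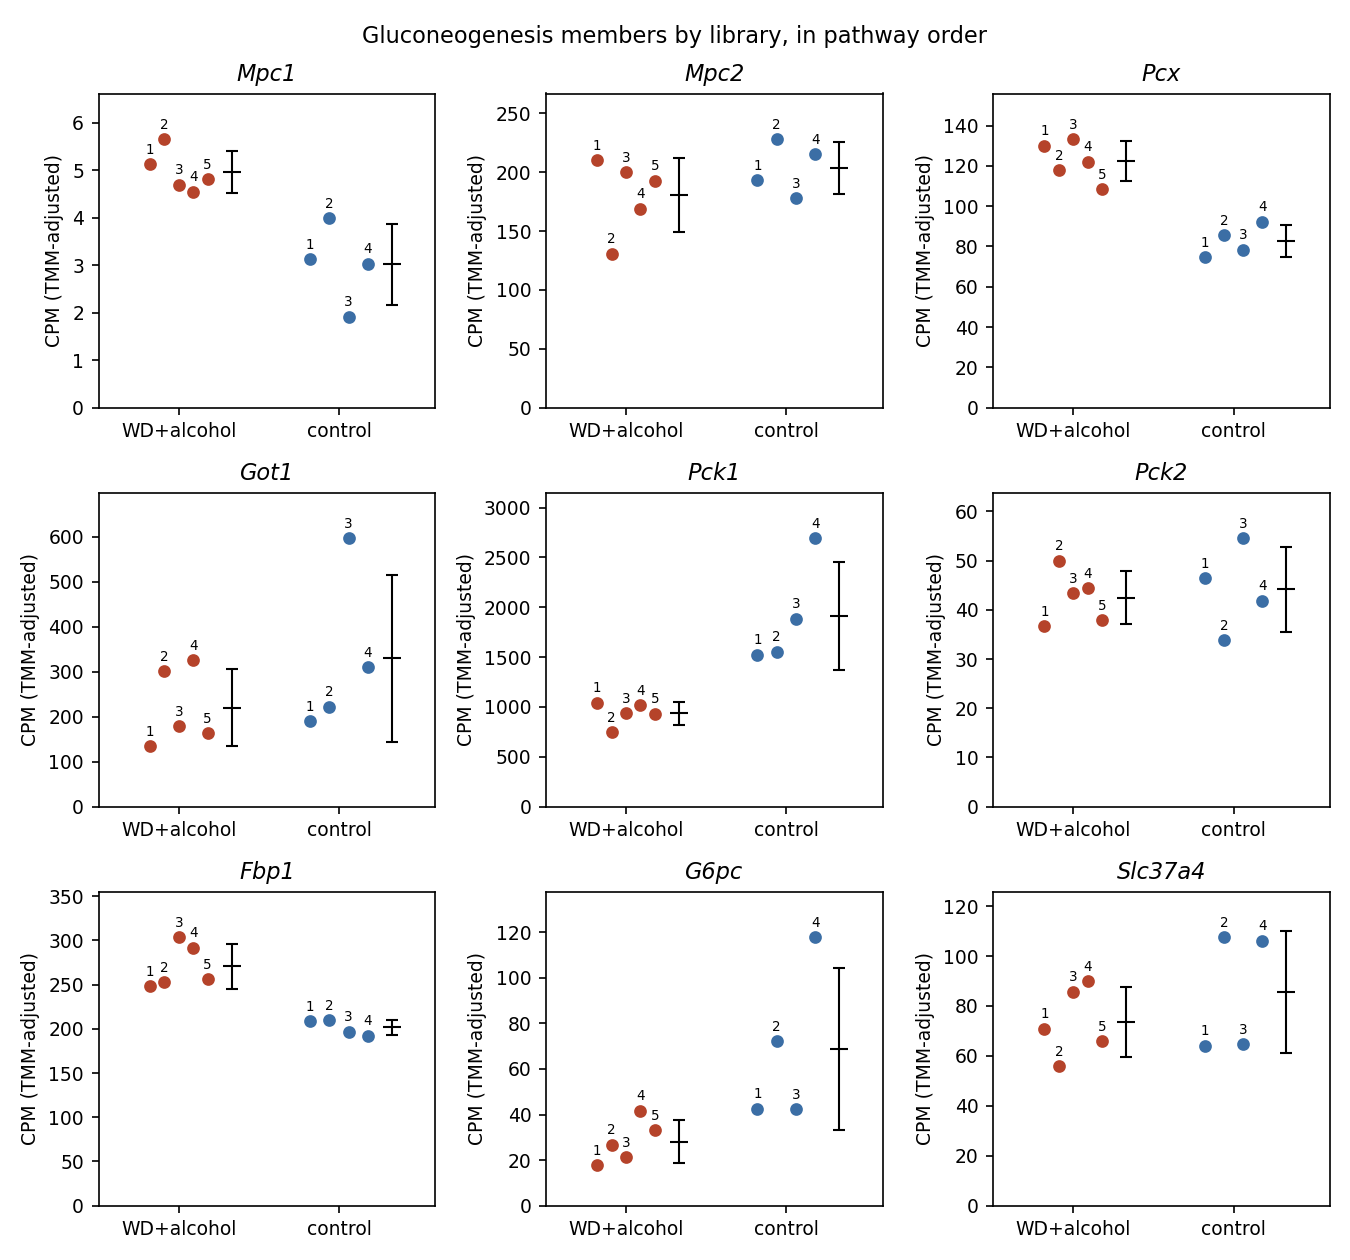
Level of each of the 9 genes in every library, in pathway order (y axes: TMM-adjusted CPM, starting at 0; numbers beside points are mouse numbers within a group; black bars are the mean and SD, n = 5 WD+alcohol and n = 4 control). Pcx and Fbp1 are higher and Pck1 is lower in all 5 WD+alcohol livers than in any control liver, while G6pc nearly touches between groups and Got1, Pck2, Mpc2 and Slc37a4 overlap.

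For entry of pyruvate, only the transcripts of both carrier subunits, which work as a heteromer, were measured. Mpc1 had 5.12, 5.65, 4.69, 4.55 and 4.80 CPM in WD+alcohol livers 1 to 5, against 3.13, 3.99, 1.91 and 3.03 CPM in control livers 1 to 4. All WD+alcohol values lay above all control values, yet the log2 fold change of 0.59 ± 0.19 (SE) did not pass the threshold (adjusted p = 0.143, limma-trend). These levels rested on 11 to 37 reads per library, and its processed copy Mpc1-ps, listed separately, had at most 0.200 CPM. The labels do not say how reads matching both copies were counted, and the level of Mpc1 is uncertain to that extent. Mpc2 was far more abundant, at 181 ± 31.7 CPM (SD, n = 5) in WD+alcohol and 204 ± 22.3 CPM (SD, n = 4) in control livers. Its log2 fold change was -0.19, with a 95% interval from -0.46 to 0.09 (adjusted p = 0.632, limma-trend).

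Pcx, which commits pyruvate to oxaloacetate, rose. It had 130, 118, 133, 122 and 108 CPM in WD+alcohol livers 1 to 5, against 74.6, 85.7, 78.4 and 92.3 CPM in control livers 1 to 4. The lowest WD+alcohol liver (108 CPM) was above the highest control liver (92.3 CPM), and the values were tight, with an SD of 8.10% of the mean in WD+alcohol and 9.47% in control livers. The mean was 1.48-fold higher with WD+alcohol, and the log2 fold change was 0.56 ± 0.09 (SE, adjusted p = 0.00306, limma-trend). In the GENCODE M21 annotation (GRCm38) Pcx overlaps Lrfn4 on the opposite strand, which had at most 5.04 CPM here.

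Got1, which turns aspartate back into oxaloacetate in the cytosol, had the widest spread within each group, with an SD of 39.2% of the mean in WD+alcohol and 56.2% in control livers. It had 134, 301, 179, 326 and 163 CPM in WD+alcohol livers 1 to 5, against 190.0, 222, 597 and 311 CPM in control livers 1 to 4. The groups overlapped widely, and control 3 stood highest of all libraries. The log2 fold change was -0.52, with a 95% interval from -1.20 to 0.16 (adjusted p = 0.570, limma-trend), and without control 3 it was -0.18.

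Pck1, the cytosolic carboxykinase, was the most abundant of the 9 genes, ranking 61 of 14759 by mean level, and it fell. It had 1041, 747, 938, 1016 and 934 CPM in WD+alcohol livers 1 to 5, against 1526, 1553, 1885 and 2693 CPM in control livers 1 to 4. No value overlapped, and the WD+alcohol livers lay close together (SD 12.3% of the mean, against 28.4% in control livers, where control 4 was far above the rest). The WD+alcohol mean was 0.489 of the control mean, and the log2 fold change was -1.002 ± 0.156 (SE, adjusted p = 0.00324, limma-trend). Without control 4 the log2 fold change was -0.83 (adjusted p = 0.00369).

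Pck2, the mitochondrial isoenzyme of the same reaction, gave another picture. Its level was 36.7, 49.96, 43.4, 44.4 and 37.8 CPM in WD+alcohol livers 1 to 5, against 46.5, 33.8, 54.6 and 41.9 CPM in control livers 1 to 4. The WD+alcohol range lay inside the control range. The log2 fold change was -0.05, with a 95% interval from -0.33 to 0.24 (adjusted p = 0.942, limma-trend), and its sign turned with scaling on hepatocyte markers (0.14) or to 1 common total (0.0087).

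Fbp1, which removes a phosphate from fructose-1,6-bisphosphate and opposes phosphofructokinase, rose. It had 248, 253, 304, 292 and 256 CPM in WD+alcohol livers 1 to 5, against 208, 209, 197 and 192 CPM in control livers 1 to 4. The control livers were the most uniform of any of the 9 genes (SD 4.27% of the mean), and every WD+alcohol liver was above them. The mean was 1.34-fold higher and the log2 fold change was 0.42 ± 0.08 (SE, adjusted p = 0.0114, limma-trend). This was the smallest of the 3 called changes.

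G6pc encodes the unit that releases free glucose. It had 17.8, 26.7, 21.4, 41.7 and 33.03 CPM in WD+alcohol livers 1 to 5, against 42.5, 72.1, 42.2 and 118 CPM in control livers 1 to 4. The groups did not overlap, but WD+alcohol 4 (275 reads, exact 95% Poisson interval 36.9 to 46.9 CPM) and control 3 (243 reads, 37.1 to 47.9 CPM) differed by less than counting error. The WD+alcohol mean was 0.410 of the control mean, the largest difference of the 9 genes on the log2 scale (-1.19 ± 0.29, SE), and it narrowly missed the threshold (adjusted p = 0.0526, limma-trend). It was called in 7 of 21 alternatives, among them DESeq2 (adjusted p = 0.0331) and hepatocyte-marker scaling (0.00732), and over all 21 its adjusted p ran from 0.00398 to 0.227. Slc37a4, the transporter that brings glucose-6-phosphate to it, had 70.9, 55.9, 85.8, 89.8 and 65.9 CPM in WD+alcohol livers 1 to 5, against 64.1, 108, 64.6 and 106 CPM in control livers 1 to 4. Those values overlapped, with a log2 fold change of -0.19 (95% interval -0.58 to 0.20, adjusted p = 0.757, limma-trend).

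**Figure D2:**
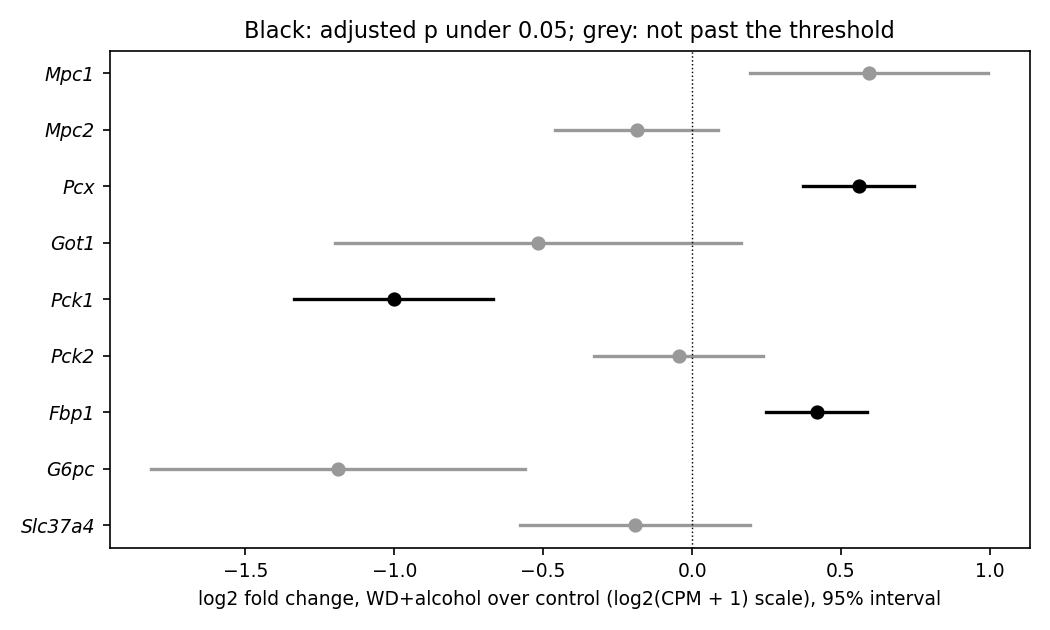
Log2 fold change of each gene, WD+alcohol over control, on the log2(CPM + 1) scale (points) with its 95% interval (lines), from pyruvate entry at the top to glucose release at the bottom; black marks an adjusted p under 0.05. Pcx (0.56) and Fbp1 (0.42) lie right of 0 and Pck1 (-1.002) left of it; the intervals of Mpc1 and G6pc exclude 0 without passing the adjustment over all genes.

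The balance between partners was then compared within each library, where scaling cancels. Of 4 ratios, each was tested by an exact two-sided permutation test of its log2 value over the 126 ways to split 9 livers into 5 and 4, and p-values were adjusted over the 4. The pairs were set with earlier results known, the fall of Pck1 among them, so these tests add no separate support for any single gene. Pck1, Pcx, G6pc and Mpc1 each separated the groups by themselves, which made small p-values likely for their ratios. Pck1 and Pcx separated them in opposite directions, so separation of their ratio, with a p at or near the smallest possible, was fixed in advance. G6pc and Mpc1 did not pass the threshold over all genes, and their ratios do not change that. Pck1 reads stood to Pck2 reads at 22.5 ± 4.94 in WD+alcohol (SD, n = 5) and 44.4 ± 14.5 in control livers (SD, n = 4), a log2 difference of -0.96 (exact permutation p = 0.00794, adjusted 0.00794). Reads of Pck1 thus outnumbered those of Pck2 in every liver, by 14.96 to 28.4 times with WD+alcohol and by 32.8 to 64.3 times in control livers. Protein was not measured.

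Pck1 to Pcx, enzymes with the export of oxaloacetate between them, showed the widest gap. The ratio was 8.02, 6.34, 7.04, 8.32 and 8.62 in WD+alcohol livers 1 to 5, against 20.4, 18.1, 24.1 and 29.2 in control livers 1 to 4. The highest WD+alcohol value was far below the lowest control value, and the log2 difference was -1.57 (exact permutation p = 0.00794, adjusted 0.00794). Since both genes separated the groups in opposite directions, this p is no separate test. For G6pc to Slc37a4 the ratio was 0.389 ± 0.127 in WD+alcohol (SD, n = 5) and 0.774 ± 0.224 in control livers (SD, n = 4), a log2 difference of -1.02 (exact permutation p = 0.00794, adjusted 0.00794). Controls 1 to 3 lay between 0.653 and 0.670 and control 4 at 1.11, and without control 4 the difference was -0.84 (exact permutation, adjusted p = 0.0714). For Mpc1 to Mpc2 the ratio was 0.0286 ± 0.0083 in WD+alcohol and 0.0146 ± 0.0030 in control livers (SD, n = 5 and n = 4, log2 difference 0.95, exact permutation p = 0.00794, adjusted 0.00794), with the doubt about Mpc1 reads given above. In this design 0.00794 is the smallest p the test allows.

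**Figure D3:**
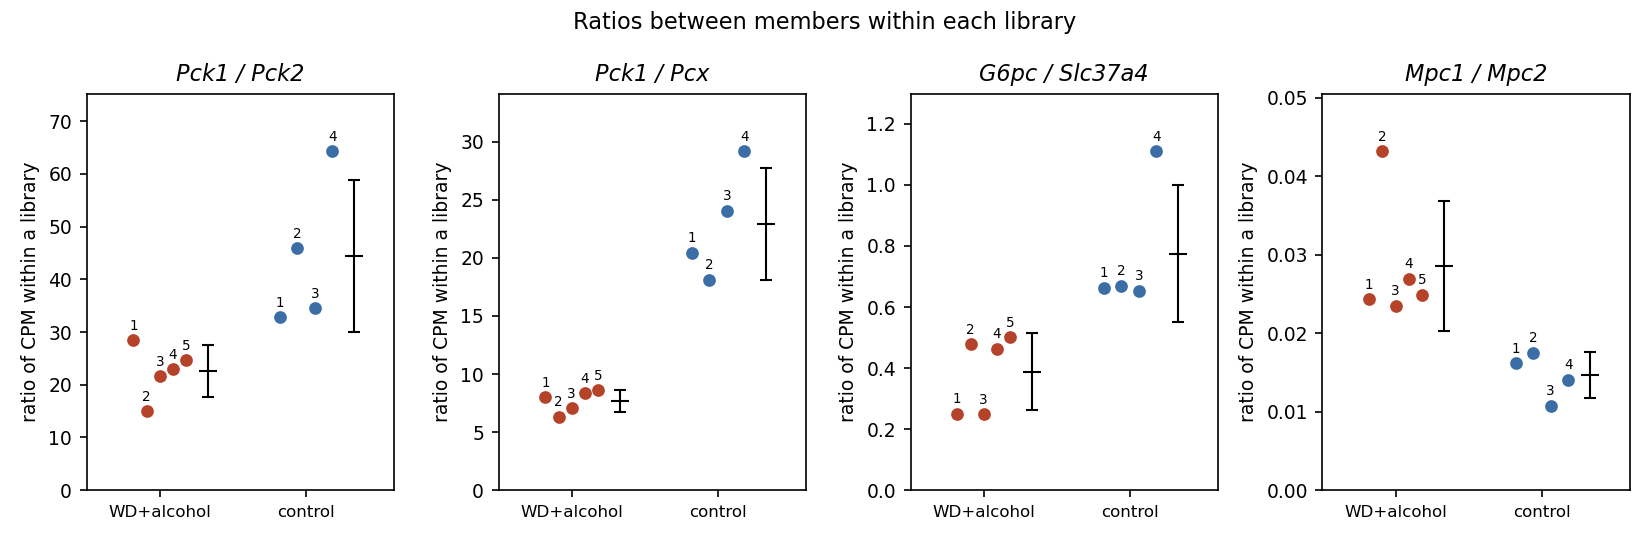
Ratio of CPM between paired genes in each library (y axes start at 0; numbers are mouse numbers; black bars are the mean and SD, n = 5 WD+alcohol and n = 4 control). All 4 ratios separate the groups; Pck1 to Pcx stays at or below 8.62 in WD+alcohol livers and at or above 18.1 in control livers.

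The genes around the pathway were described by 7 lists, of which 93 genes were tested and 1 was called. Of all 14759 genes tested, 2.29% were called, and lists this short can hold few or no calls at that share. That gene was Ppp1r3c, a glycogen-targeting subunit of protein phosphatase 1, at 12.5 ± 2.29 CPM in WD+alcohol (SD, n = 5) and 27.7 ± 11.4 CPM in control livers (SD, n = 4), with a log2 fold change of -1.03 ± 0.21 (SE, adjusted p = 0.0181, limma-trend). The other 10 tested genes of glucose release and glycogen were not called, among them Slc2a2, the glucose exporter of hepatocytes (121 ± 28.1 CPM with WD+alcohol, 142 ± 45.5 CPM in control livers). In the same list the relatives G6pc2 and Fbp2 were not tested, since G6pc2 had no read and Fbp2 at most 0.659 CPM.

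None of 8 reversible steps shared with glycolysis was called (median log2 fold change 0.28, 7 of 8 positive). None of 8 glycolysis-only genes was called (median 0.02). Among them Gckr, the most abundant, had 60.9 ± 12.5 CPM with WD+alcohol and 66.2 ± 13.4 CPM in control livers, and the pyruvate kinase Pklr had 22.2 ± 8.32 CPM with WD+alcohol and 24.9 ± 12.1 CPM in control livers (SD, n = 5 and n = 4). Of 11 genes of pyruvate dehydrogenase and its kinases none was called (median -0.02), with Pdhb at 98.3 ± 5.14 CPM with WD+alcohol and 113 ± 16.1 CPM in control livers, and Pdk4 at 1.90 ± 1.12 and 0.72 ± 0.74 CPM.

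Of 7 other genes of the malate-aspartate shuttle and oxaloacetate export none was called (median -0.01), and Got2, the mitochondrial partner of Got1, had 259 ± 27.7 CPM with WD+alcohol and 265 ± 34.7 CPM in control livers (SD, n = 5 and n = 4). None of 16 genes of substrate entry was called (median -0.04), the most abundant being Glud1, glutamate dehydrogenase, at 422 ± 59.6 CPM with WD+alcohol and 478 ± 69.3 CPM in control livers. Of 32 genes of transcriptional and hormonal control none was called (median -0.07, 22 of 32 negative). In that list Ppargc1a, a coactivator of gluconeogenic genes, had 2.76 ± 1.66 CPM with WD+alcohol and 3.87 ± 1.98 CPM in control livers, Foxo1, a factor inhibited by insulin, 88.7 ± 6.43 and 80.2 ± 10.4 CPM, the glucagon receptor Gcgr 58.6 ± 12.6 and 65.3 ± 16.7 CPM, and the most abundant, Atf4, 284 ± 16.6 and 313 ± 9.98 CPM. Their messages do not report on phosphorylation or other control of the proteins.

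**Figure D4:**
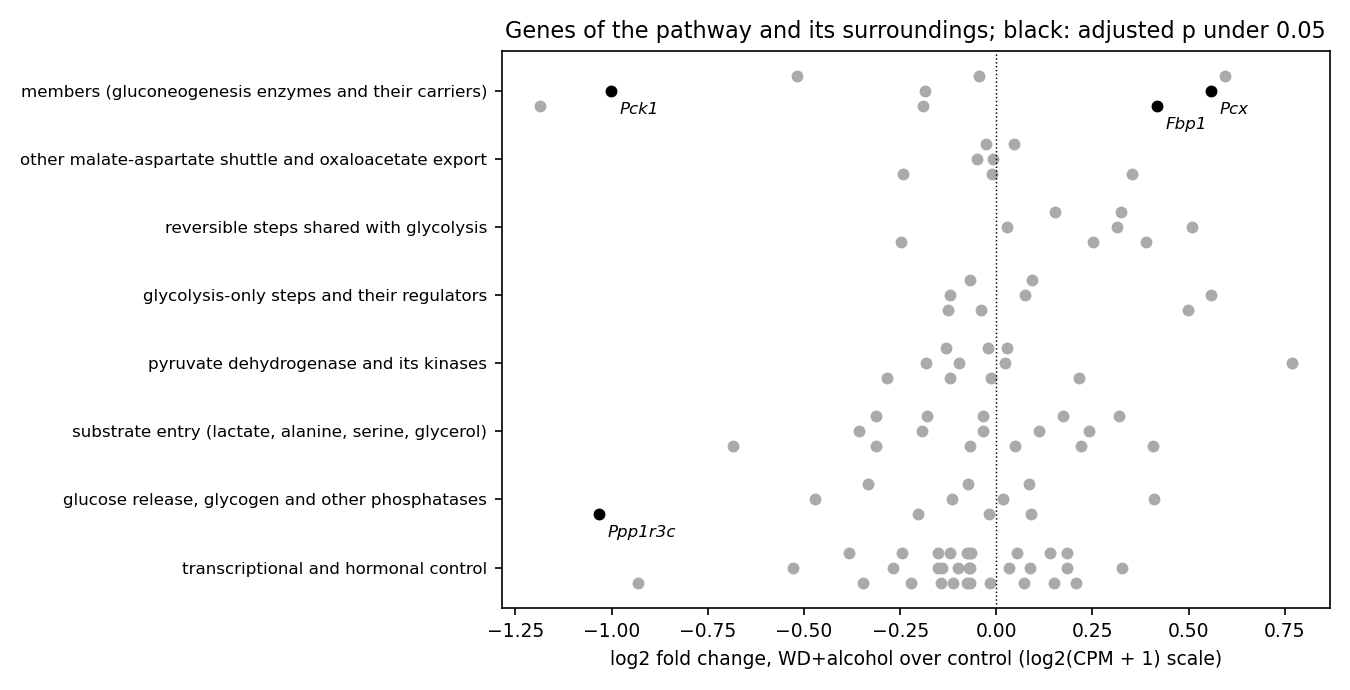
Log2 fold change of every tested gene of the pathway and 7 surrounding lists, WD+alcohol over control, on the log2(CPM + 1) scale, 1 point per gene (vertical offsets only separate points); black marks an adjusted p under 0.05 by limma-trend. Outside the 9 gluconeogenesis genes, Ppp1r3c (-1.03) is the single called gene, where 2.29% of all genes tested were called.

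Genes with the most similar profile over the 9 libraries were found by the root-mean-square difference of log2(CPM + 1) after each gene's mean was taken off, among 10275 genes. For Pck1 these were Elovl2, a fatty acid elongase (difference 0.16), Tedc2 (0.18) and Hao1, glycolate oxidase (0.24), where Pck1 itself departed from its mean by 0.56. Elovl2 had 97.1 ± 12.4 CPM in WD+alcohol and 196 ± 42.9 CPM in control livers (SD, n = 5 and n = 4). For Pcx they were Clu, clusterin (0.09), Msra, a methionine sulfoxide reductase (0.10), and Gatm, glycine amidinotransferase (0.10), against its own departure of 0.30. For Fbp1 they were Ninj1 (0.07), Taf6 (0.09) and Mgst1, a microsomal glutathione transferase (0.10), against 0.23. None of the 3 called genes was among the 3 nearest of another called gene, and Pck1 was the nearest but 2 to G6pc (0.46).

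Cell type markers moved beside these results. All 30 hepatocyte markers were read, with a summed level of 50169 to 74117 CPM in WD+alcohol and 70791 to 97540 CPM in control livers. Of them 2 (Alb and Apoa1) were called lower, where 0.678% of all genes tested were. The 12 periportal markers other than Pck1 summed to 1972 to 3244 CPM in WD+alcohol and 2642 to 3837 CPM in control livers. Over all 13 periportal markers, Pck1 included, the median log2 fold change was -0.48 and 10 were negative. Of the 13, 10 had an unadjusted p under 0.05 by limma-trend (12.2% of all genes tested did), 8 of them lower and 2 higher, while Pck1 was the only one called after adjustment. Ass1 (-0.81) and Cps1 (-0.68), both of the urea cycle, had the largest negative log2 fold changes after Pck1 besides Gls2 (-0.68). The 2 higher ones were Aldh1b1 (0.73) and Hsd17b13 (0.60). The 13 Kupffer cell and macrophage markers summed to 659 to 1084 CPM in WD+alcohol and 219 to 360 CPM in control livers. Of them 11 were called higher, where 1.61% of all genes tested were. With hepatocyte-marker scaling the log2 fold changes were -0.82 for Pck1, 0.74 for Pcx and 0.60 for Fbp1, to be read against the shift of 0.17, and all 3 stayed called (adjusted p 0.00328 to 0.0194, limma-trend).

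The 8 adipocyte markers summed to 96.8 to 222 CPM in WD+alcohol and 9.72 to 18.6 CPM in control livers, through Cidec, Cfd and Fabp4. All 3 were called higher, where 1.61% of all genes tested were. The other 5 were near 0: Lep had no read, Adipoq, Retn and Adig had at most 0.400, 0.188 and 0.611 CPM in any library, and Plin1 was read in 4 of 5 WD+alcohol livers (up to 1.08 CPM) and in 0 of 4 control livers. Of 6 kidney proximal tubule markers 4 had no read, and the sum was at most 1.20 CPM in WD+alcohol and 1.91 CPM in control livers. Of 6 intestinal markers Cdx2 and Sis had no read, and the sum of 95.7 to 154 CPM in WD+alcohol and 49.9 to 55.5 CPM in control livers came mostly from Fabp2. The part of macrophage, periportal or other cell shares in the changes of Pcx, Fbp1 and Pck1 was not tested.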

How the data were processed

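Liver RNA of 5 WD+alcohol and 4 control mice was made into 3′ mRNA libraries, per the labels' protocols. Per the submitters' processing notes the tools were Trim Galore 0.6.0, cutadapt 1.18, STAR, HTSeq 0.11.0 and edgeR 3.28.1 in R 3.6.3, with build GRCm39; strand use and treatment of multimapping reads are not given in the sources used here. The deposited values are a signal, CPM adjusted by TMM by the authors; each library's column was matched by its library name. All positive values (100%, relative tolerance 1e-06) were whole multiples of 1 read, so reads were recovered. One read was worth 0.152 to 0.270 CPM, and 0 reads allow up to 0.455 to 0.809 CPM (3 reads). Intervals and floors cover counting error only, since reads carry no molecular identifiers.

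A pseudocount of 1 CPM was added before taking log2, and limma-trend from limma 3.58.1 under R 4.3.3 was fitted to every gene averaging 1 CPM or more over the 9 libraries. Its two-sided p-values were adjusted by Benjamini-Hochberg over all these genes. A fold change on this scale understates that of low genes. Each library was taken as 1 mouse. Members, lists, ratios and tests were chosen with earlier results of these data known. Named genes were the 9 members, called genes of each list (or its most abundant), 8 fixed genes, and the 3 nearest profiles of called members (mean of at least 5 CPM); 2 genes that this rule names are not reported here. Fits were also run on simulated data, with the same relative spread between mice set for every gene. Got1 and G6pc were spread more widely than that, so the simulation does not cover them. Alternatives were other pseudocounts, filters, scalings, robust and weighted fits, leaving out each library, the replicate number as a block, and edgeR 4.0.16 and DESeq2 1.42.0 on recovered reads.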

Additional observations from a re-analysis of the deposited data

How the results depend on the processing

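Over 21 alternatives Pck1 kept its call and its sign in all, and Pcx and Fbp1 kept their sign in all and their call in 20. No pairing of mice by replicate number is stated in the titles. Correlations of same-numbered deviations ran from -0.31 to -0.0075, and those of different numbers from -0.093 to 0.29. Such correlations over all genes cannot settle whether mice were paired. With the replicate block, in which WD+alcohol 5 adds nothing, 112 genes were called (76 higher, 36 lower), among them Pck1 and G6pc (adjusted p = 0.00398) but not Pcx (0.0504) or Fbp1 (0.175). Over 4 such pairs the log2 ratio differences were -0.998 (Pck1 to Pck2), -1.61 (Pck1 to Pcx), -1.13 (G6pc to Slc37a4) and 0.99 (Mpc1 to Mpc2), each with an exact sign-flip p of 0.125, the smallest possible. Calls over all genes were 514 with hepatocyte-marker scaling, 545 with DESeq2 and 201 to 387 with 1 library left out (201 without WD+alcohol 5). Leaving out 1 library kept 3 or 4 of the 9 genes called, G6pc joining without WD+alcohol 4, control 1 or control 3 (adjusted p 0.0290 to 0.0444). The log2 difference of G6pc to Slc37a4 then ran from -1.13 to -0.84. Pck2 turned to 0.0087 with 1 common total and to 0.14 with hepatocyte-marker scaling, and ran from -0.164 to 0.0612 with 1 library left out. The causes were not tested. Mpc1, with at most 37 reads per library, was not called in any of its 20 alternatives and could not be fitted at a mean of at least 5 CPM, which removes it.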

Other observations

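Mice of the same group differed in Tat, Igfbp1 and Sds, genes that fasting hormones are known to raise in liver, which were chosen after their values were seen. Tat, tyrosine aminotransferase, had 127, 389, 137, 236 and 138 CPM in WD+alcohol livers 1 to 5, against 195, 227, 720 and 501 CPM in control livers 1 to 4. Igfbp1, a binding protein that insulin lowers, had 74.1, 226, 31.3, 58.6 and 105 CPM in WD+alcohol livers 1 to 5, against 20.6, 16.8, 315 and 199 CPM in control livers 1 to 4. Sds, serine dehydratase, had 194, 271, 147, 356 and 175 CPM in WD+alcohol livers 1 to 5, against 143, 158, 459 and 236 CPM in control livers 1 to 4. Among controls, 3 was highest and 4 next in all 3 of these genes and in Got1, with controls 1 and 2 below them. Among WD+alcohol livers, 2 and 4 stood above the rest in Got1, Tat and Sds, with liver 4 first in Got1 and Sds and liver 2 first in Tat. In Igfbp1 liver 2 was highest and liver 5 next, and liver 4 (58.6 CPM) was below liver 1 (74.1 CPM). Pck1 and G6pc, which glucagon also raises, had other orders. In both, control 4 was highest. Control 3 was next in Pck1 (1885 CPM) but lowest in G6pc (42.2 CPM), close to control 1 (42.5 CPM). WD+alcohol 2 was lowest of its group in Pck1 (747 CPM), and WD+alcohol 4 was highest of its group in G6pc (41.7 CPM). Whether these genes vary together was not tested. Tat (adjusted p = 0.330), Igfbp1 (0.957) and Sds (0.983) were not called by limma-trend.

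Gls2, a liver glutaminase of periportal cells that supplies glutamate, had 106 ± 32.9 CPM in WD+alcohol and 167 ± 31.6 CPM in control livers (SD, n = 5 and n = 4) and was not called (log2 fold change -0.68 ± 0.19, SE, adjusted p = 0.0881, limma-trend). It had the largest log2 difference among the 16 tested genes of substrate entry and was chosen for that; the groups overlapped.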
